A study of Homo sapiens with 8 samples.

Results

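The 48 genes of the array named PSMA, PSMB, PSMC, PSMD, PSME, PSMF or PSMG with a number encode the subunits of the proteasome and the proteins that activate, inhibit or assemble it. They were chosen by name alone out of 43317 genes, and pseudogenes and antisense transcripts were left out. The proteasome is the barrel-shaped protease that degrades ubiquitin-tagged proteins in the cytoplasm and the nucleus. Its core particle is built of rings of alpha (PSMA) and beta (PSMB) subunits, and only some beta subunits cut peptides. A regulatory particle of ATPases (PSMC) and non-ATPases (PSMD) binds, unfolds and feeds the substrate, and interferon exchanges the cutting subunits for inducible ones that make peptides for antigen presentation.

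Each of 8 two-colour arrays compared Cy3-labelled RNA of mock cells with Cy5-labelled RNA of treated cells of the same cancer line. The prostate cancer line PC3 received bisamide for 24 h or for 48 h, and on another array the miRNA strand miR-125b-1-3p. Bisamide is a small molecule described as an inhibitor of pirin, and the labels list it under transfection. C4-2, derived from the prostate line LNCaP, was transfected with miR-199-3p. The kidney cancer line 786-O received either strand of the miR-532 precursor (5p or 3p), and the bladder cancer line T24 either strand of the miR-140 precursor. The labels call the mock cells untransfected and name a lipofection reagent for all transfections, and the hours between transfection and harvest are not given in the sources used here. Each group held 1 array and no dyes were swapped, so no test was made and dye and treatment cannot be told apart. Every ratio below is the log2 of treated RNA over mock RNA on 1 array unless another scale is named.

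The transfected strands are shown because the arrays differ in them. They are the mature sequences of RefSeq (GRCh38.p14), with the seed, bases 2 to 8 from the 5′ end, in capitals.
miR-199a-3p: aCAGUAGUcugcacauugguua
miR-125b-1-3p: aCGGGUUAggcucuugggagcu
miR-532-5p: cAUGCCUUgaguguaggaccgu
miR-532-3p: cCUCCCACacccaaggcuugca
miR-140-5p: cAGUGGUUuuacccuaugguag
miR-140-3p: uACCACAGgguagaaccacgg
No 2 of these strands share a seed, and miR-199b-3p has the same sequence as miR-199a-3p. The 71 probes of the proteasome genes, each 60 bases long, were searched for the match to bases 2 to 8. Only the PSMB6 probe held one, to miR-532-5p, and 0.486% of all 58201 probes held that match. It is shown in capitals within the first 30 bases of the probe, which covers chr17:4701404-4701589 (GRCh37, plus strand, across an exon junction).
PSMB6 probe: gggAAGGCATgaccaaggaagagtgtctgc
The probes cover only a small stretch of each transcript, and the rest of the transcripts was not searched.

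Of the 48 genes, 46 were well above background in both channels on all 8 arrays. PSMA8, the alpha subunit of spermatogenic cells, was not well above background in either channel on any array. PSMB11, the beta subunit of the thymic cortex, was well above background in Cy5 alone on 2 arrays and in neither channel on the other 6. The ratios therefore describe the proteasome of general tissues and its interferon-inducible form.

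Some facts of the arrays bear on every value. PSMD6 and PSMD7, lid subunits printed in 10 spots each, had an SD between spots of 0.018 to 0.062, which is the error within an array. Between the 3 mock channels of PC3 the members' log2 Cy3 signals had a median SD of 0.15, with a range of 0.034 to 0.43. The 2 mocks of 786-O differed by a median of only 0.050 over the members and those of T24 by 0.038, and the labels do not say whether they were the same RNA. Ratios on the 2 arrays of such a line are therefore given side by side. KLK3 was bright in the C4-2 mock alone, and CDH6 was well above background in the mocks of 786-O alone, while CA9 was not in any mock. UPK2, UPK1B, UPK3A and GATA3, markers of bladder epithelium, were not well above background in the T24 mocks. FGFR3, also listed for bladder, was, at raw Cy3 signals of 44.1 to 49.1, and so it was in the mocks of 786-O and C4-2. The kidney markers PAX2 and PAX8 gave more raw Cy3 signal in T24 than in 786-O. PAX2 was at 551 to 619 against 112 to 124 and PAX8 at 390 to 423 against 235 to 239. CDH6, also a kidney marker, went the other way, at 18.9 to 21.7 against 153 to 164. Raw signals carry the brightness of the array: PSMB1 was at 6547 to 6841 in T24 and 3999 to 4138 in 786-O. PAX8 was also above background in the 3 PC3 mocks, at 32.7 or less. PAX2, PAX8 and the bladder markers not detected go against the labelled tissue of T24, while FGFR3 and CDH6 do not. T24 here means the line labelled so.

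The proteasome genes as a group lay below 0 on the bisamide arrays and on the arrays of both miR-532 strands. Their median was −0.20 with bisamide at 24 h, −0.19 at 48 h, −0.26 with miR-532-5p and −0.25 with miR-532-3p. It was −0.10 in C4-2 (miR-199-3p) and −0.08 in PC3 given miR-125b-1-3p. In T24 the medians were 0.03 (miR-140-5p) and −0.0005 (miR-140-3p). Below 0 were 38 of 46 members on each miR-532 array, against 49.9% (5p) and 50% (3p) of all genes, 30 with miR-199-3p, against 47.3%, and 28 with miR-125b-1-3p, against 45.6%. On the T24 arrays 18 (5p) and 23 (3p) members lay below 0, against 47.6% and 45.4% of all genes. The median of all genes measured lay between −0.0002 and 0.02 on every array, and that of the genes in the brightness range of the middle of the members (8.96 to 11.30, log2) between −0.05 and 0.02. Against those genes of like brightness the members' median was lower by 0.19 at both bisamide times, by 0.21 with miR-532-5p and by 0.23 with miR-532-3p. Over the 3 PC3 mocks, the members' median log2 Cy3 signal minus that of all genes well above background had an SD of 0.15. This is a spread of the Cy3 channel between arrays and does not measure the error of a ratio within an array.

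Direction depended on how the dye bias was removed. With each array centred on its median instead of loess, the members' median relative to all genes turned to 0.18 on both bisamide arrays, 0.17 in C4-2, 0.24 in PC3 given miR-125b-1-3p and 0.05 in 786-O given miR-532-3p. That setting put the median of all genes itself between −0.03 and 0.45, and single values and counts given for it below include this shift. Relative to genes of like brightness it stayed below 0 under that setting, at −0.13 and −0.14 with bisamide at 24 h and 48 h, −0.18 (5p) and −0.18 (3p) with the strands of miR-532, −0.11 in C4-2 and −0.04 in PC3 given miR-125b-1-3p. In T24 it was 0.09 (5p) and −0.02 (3p).

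**Figure D1:**
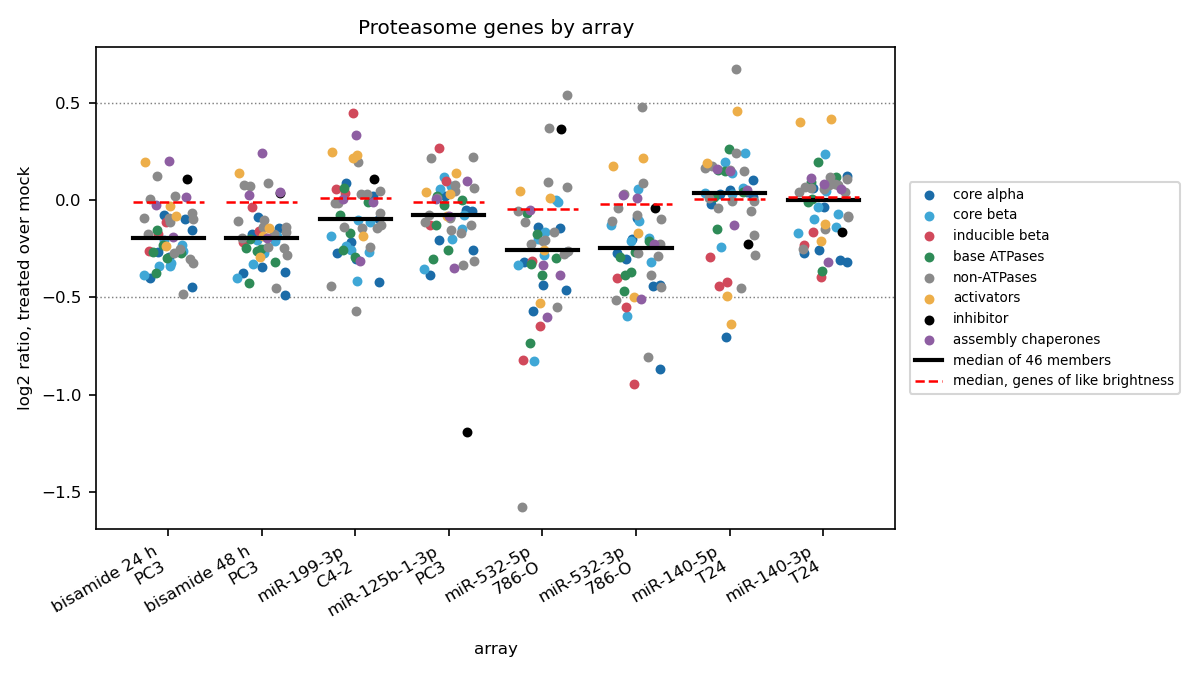
Log2 ratio of treated over mock RNA (y) of the 46 measured proteasome genes (points, coloured by role) on each array (x), with the members' median (black bar), the median of genes of like brightness (red dashes) and dotted lines at −0.5 and 0.5. The black bars of the bisamide and miR-532 arrays lie between −0.26 and −0.19, and single points stand far below at −1.58 (PSMD9, miR-532-5p) and −1.19 (PSMF1, miR-125b-1-3p).

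With bisamide most subunits lay a little below 0 and none lay far from it. At 24 h, 39 of 46 members lay below 0, against 45.8% of all genes, and at 48 h 38 of 46 did, against 45.7%. None reached −0.5 at 24 h, where 0.4% of all genes did, or at 48 h, where 0.878% did. None reached 0.5 on either array, which 1.05% and 0.915% of all genes did. With median centring 36 members at 24 h and 33 at 48 h were at or above 0.5, as were 44.9% and 43.9% of all genes and 91.1% and 88.9% of those of like brightness.

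The lowest members with bisamide came from the core, the base and the lid. PSMD11, a lid subunit that helps hold core and regulatory particle together, was at −0.48 at 24 h and −0.45 at 48 h. PSMA2, an alpha ring subunit, was at −0.44 and −0.49. PSMC3, an ATPase of the base, was at −0.37 and −0.42, and PSMA3 at −0.40 and −0.38. All 7 measured alpha subunits, all 7 constitutive beta subunits and all 6 ATPases lay below 0 at both times, with medians at 24 h of −0.27, −0.33 and −0.27.

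The cutting subunits were close to each other. PSMB5, which carries the chymotrypsin-like site, was at −0.34 and −0.25 at the 2 times. PSMB6, the caspase-like subunit, was at −0.34 and −0.33, and PSMB7, the trypsin-like subunit, at −0.26 and −0.18. PSMD14, the deubiquitinase of the lid, was nearer 0 at −0.09 and −0.11, and so was PSMD4, a ubiquitin receptor, at −0.11 and −0.10.

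The activators and assembly chaperones lay on both sides of 0. PSMG4, a chaperone of the alpha ring, was the highest member at both times, at 0.20 and 0.24. PSME3, the nuclear activator, was at 0.20 and 0.14. PSMD5, a chaperone of the base, was at 0.13 and 0.07, and PSMF1, the inhibitor that binds the core, at 0.11 and 0.04. The chaperones PSMG2 and PSMG3 lay between −0.03 and 0.04. Below 0 at both times were the chaperones PSMG1, at −0.19 and −0.19, and PSMD9, at −0.18 and −0.20. The activators PSME2, at −0.24 and −0.29, PSME1, at −0.03 and −0.18, and PSME4, at −0.08 and −0.14, were below 0 too.

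The 2 bisamide arrays were alike in size, with a median absolute difference between them of 0.047 over the members and 0.069 over all genes. The widest gap was in PSMA4, at −0.15 at 24 h and −0.37 at 48 h. The mock of the 24 h array had a members' log2 Cy3 signal higher by a median of 0.20 than that of the 48 h array and by 0.18 than that of the miR-125b-1-3p array, and its part in the result was not tested.

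Among the partners, POMP, which matures the core, was at −0.32 at 24 h and −0.20 at 48 h. NFE2L1, the transcription factor known for raising proteasome genes, was at 0.22 and 0.14, and ZFAND2A, a heat-inducible proteasome-binding protein, at 0.29 and 0.48. Of 28 partners measured at each time none passed 0.5 in size. At 24 h 0.4% of all genes were at or below −0.5 and 1.05% at or above 0.5, and at 48 h 0.878% and 0.915%. The medians of the partners were 0.03 and −0.007, those of the 8 CCT chaperonin subunits −0.21 and −0.21, and those of the 9 COP9 signalosome subunits, kin of the lid, −0.07 and −0.05.

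**Figure D2:**
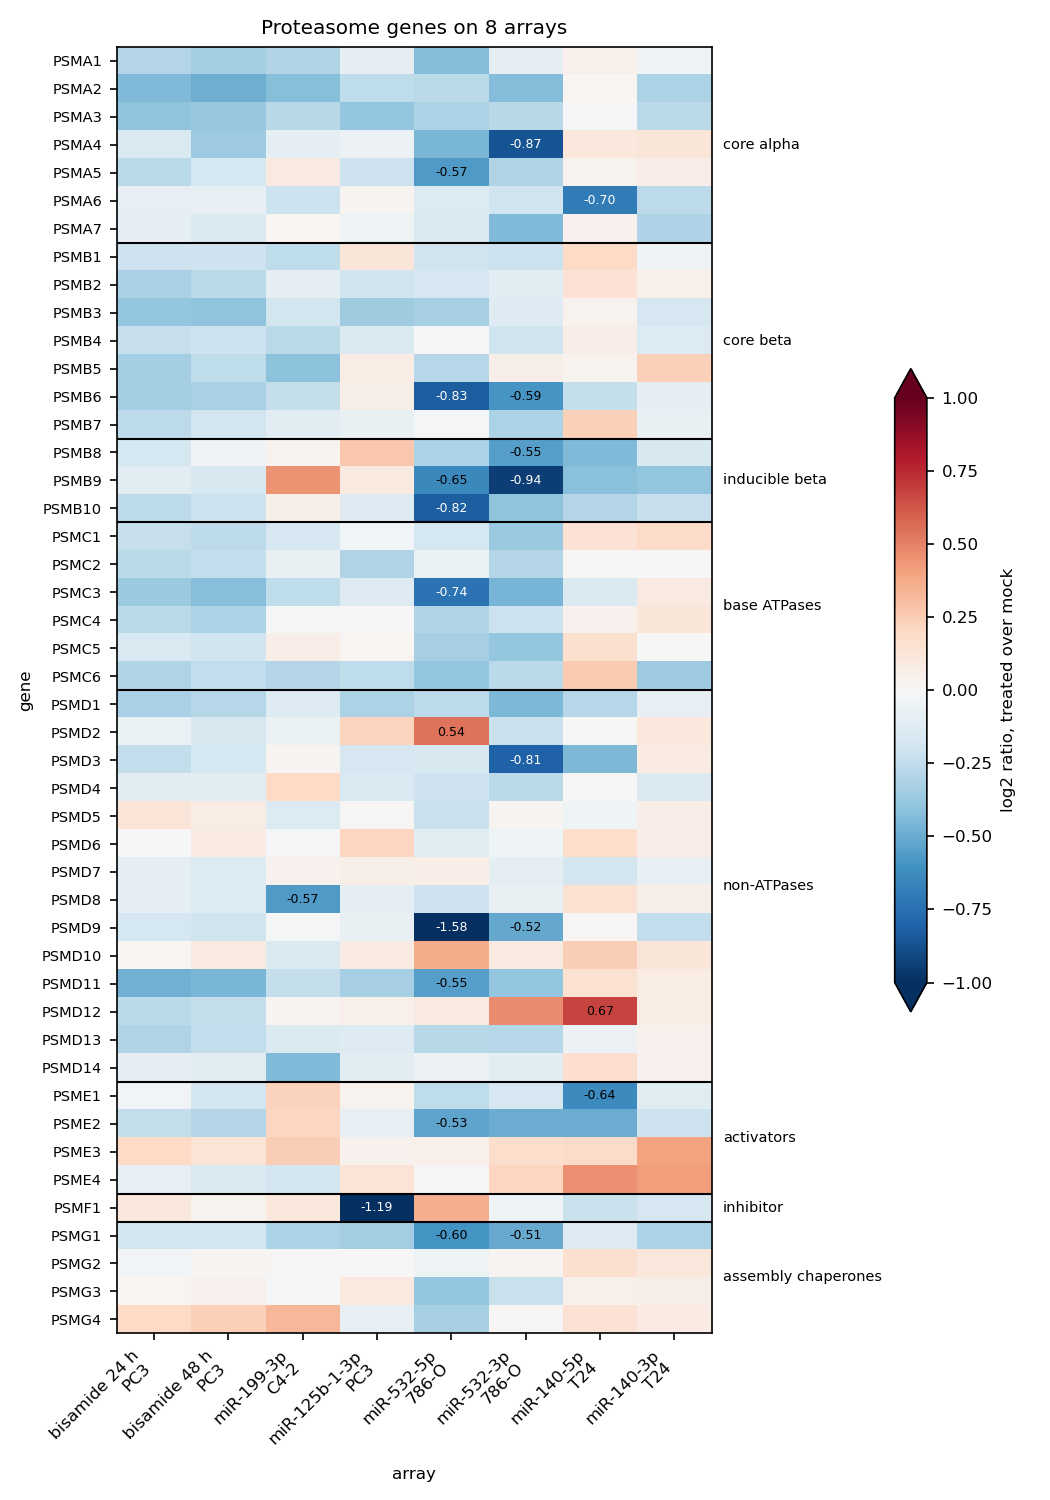
Log2 ratio of treated over mock RNA (colour, blue below 0 and red above, capped at 1 in size) of 46 proteasome genes (rows, by role) on 8 arrays (columns), with values of 0.5 or more in size printed. The bisamide columns are pale blue over the core and the ATPases with no printed value, while the miR-532 columns hold 17 of the 22 printed values.

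With miR-125b-1-3p in PC3 a single member stood apart. PSMF1, whose protein PI31 binds the core particle and inhibits it in vitro, was at −1.19, a ratio of 0.438. On the other 7 arrays its ratio lay between −0.23 and 0.37. It was the 1 member of 46 at or below −0.5 on this array, where 0.883% of all genes were, and no member reached 0.5, which 1.77% of all genes did.

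The low value of PSMF1 was read by several probes. The representing probe lies at chr20:1147718-1147777 (GRCh37, plus strand), and probes at chr20:1115812-1115871 and chr20:1106195-1106254 gave −1.12 and −1.02. A dimmer probe at chr20:1148367-1148426 gave −0.17, and the last of the 5 was not well above background on any array. The 3 bright probes thus lay together on this array, while on the miR-532-5p array they were at 0.37, 0.04 and −0.19, so that the single value of 0.37 there was not shared.

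The rest of the proteasome lay closer to 0 with miR-125b-1-3p. PSMA3 was at −0.38, PSMB3, a core subunit without a cutting site, at −0.35, and the chaperone PSMG1 at −0.35. The highest members were PSMB8 at 0.27 and the base subunit PSMD2 and the lid subunit PSMD6 at 0.22 each. Of 29 partners 2 were at or below −0.5, against 0.883% of all genes. They were NGLY1, the deglycosylase that NFE2L1 needs for its activity, at −0.69, and UFD1L, a cofactor of the segregase VCP, at −0.55.

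**Figure D3:**
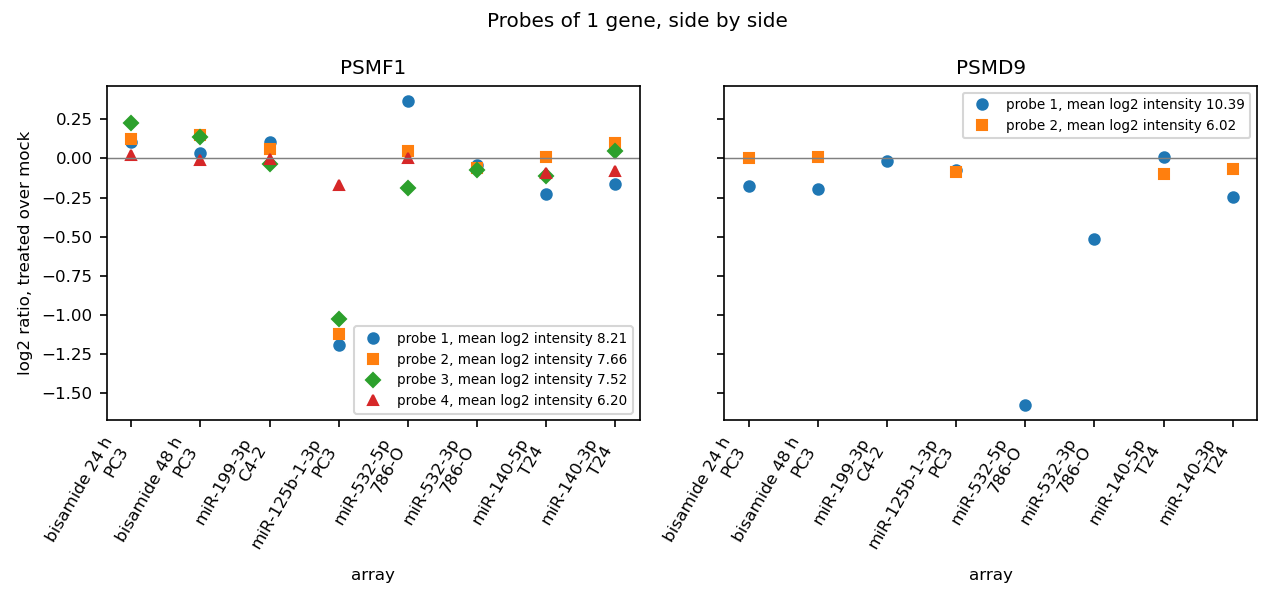
Log2 ratio of treated over mock RNA (y) of each measured probe of PSMF1 (left) and PSMD9 (right) on the 8 arrays (x). The 3 brighter PSMF1 probes lie together between −1.19 and −1.02 on the miR-125b-1-3p array, and the PSMD9 value of −1.58 on the miR-532-5p array comes from 1 probe.

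With miR-532-5p in 786-O, 9 of 46 members were at or below −0.5, against 3.67% of all genes, and 1 was at or above 0.5, against 3.6%. Of the genes of like brightness, 260 of 2495 were at or below −0.5 and 143 at or above 0.5. PSMD9, a chaperone that helps assemble the ATPase ring, was at −1.58, a ratio of 0.335. It was the only member past 1.5 in size on any array, which 0.438% of all genes measured on at least 1 array passed. The study used a log2 ratio below −1.5, together with a predicted site, for genes lowered by another miRNA. Here 1.5 was counted in both directions. On the 6 arrays without a miR-532 strand PSMD9 lay between −0.25 and 0.01. Its probe spans chr12:122353833-122354231 (GRCh37, plus strand) across an exon junction, and its other probe was not well above background in both channels in 786-O, so that 1 probe carries this value.

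The other low members with miR-532-5p came from several roles. PSMB6, whose probe holds the seed match shown above, was at −0.83. PSMC3 was at −0.74, and PSMG1, a chaperone of the alpha ring, at −0.60. PSMA5, an alpha subunit, was at −0.57 and PSMD11 at −0.55. The inducible PSMB10 and PSMB9 and the activator PSME2 complete the 9 and are described below.

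Not all subunits were lower with miR-532-5p. PSMB4 and PSMB7 lay at 0.002 and −0.01, and PSMD14 at −0.05. PSMD2, the large scaffold of the base that receives substrates, was at 0.54, but its other probe gave 0.06. PSMA1 was at −0.44, and a dimmer probe to another transcript of the gene, at raw Cy3 signals of 29.8 to 83.8, gave 0.64. Both genes are therefore uncertain here.

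With miR-532-3p, the other strand of the same precursor, 7 of 46 members were at or below −0.5, against 3.84% of all genes, and none reached 0.5, against 1.71%. Of the genes of like brightness, 222 of 2496 were at or below −0.5 and 68 at or above 0.5. PSMB9 was at −0.94 and PSMA4, an alpha subunit, at −0.87. PSMD3, a lid subunit, was at −0.81, and the other 4, PSMB6, PSMB8, PSMD9 and PSMG1, lay between −0.59 and −0.51. PSME2 was just outside the size. PSMD12, a lid subunit, was the highest member at 0.48. With median centring 2 members were at or below −0.5, against 1.23% of all genes, and 2 at or above 0.5, against 16.3%. PSMA4 was then at −0.44, PSMB8 at −0.30, PSMD9 at −0.089, PSMB6 at −0.048 and PSMG1 at 0.041. That setting put the median of all genes at 0.17 on this array.

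Set side by side, the strands of miR-532 differed most in PSMD9, at −1.58 with miR-532-5p and −0.52 with miR-532-3p. PSMD2 followed, at 0.54 and −0.23, and PSMD3, at −0.16 and −0.81. These 3 were the members that differed by 0.5 or more, out of 46, against 8.88% of all genes. PSMA4 differed by less, at −0.46 and −0.87, as did PSMB5, at −0.28 and 0.06. Medians of the CCT chaperonin were −0.38 and −0.23 on these arrays, and those of eIF3, whose subunits share folds with the lid, −0.17 and 0.05.

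Partners were counted for both strands. With miR-532-5p 1 of 27 partners was at or below −0.5, against 3.67% of all genes. It was UBB, a polyubiquitin gene, at −0.53. With miR-532-3p 3 of 27 were, against 3.84% of all genes. They were KIAA0368, whose protein ECPAS scaffolds the proteasome, at −0.76, the shuttle factor UBQLN1 at −0.64 and the proteasome-bound ligase UBE3C at −0.61. None reached 0.5 with either strand, against 3.6% (5p) and 1.71% (3p) of all genes.

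The inducible subunits and the activator made with them were low on the 786-O and T24 arrays and not on the C4-2 array. PSMB9, which replaces PSMB6 under interferon, was at −0.65 (5p) and −0.94 (3p) with the strands of miR-532, and at −0.42 (5p) and −0.39 (3p) with those of miR-140. It was at 0.45 in C4-2, at 0.10 with miR-125b-1-3p in PC3, and −0.11 and −0.16 with bisamide at 24 h and 48 h. On the C4-2 array it was thus the highest member and on the miR-532-3p and miR-140-3p arrays the lowest.

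PSMB8, the inducible counterpart of PSMB5, was at −0.31, −0.55, −0.44 and −0.16 on the 2 miR-532 and the 2 miR-140 arrays, in the same order as PSMB9 was given. PSMB10, that of PSMB7, was at −0.82, −0.40, −0.29 and −0.23. All of these are below 0 on each array of 786-O and T24. With miR-125b-1-3p PSMB8 was at 0.27 and PSMB10 at −0.13, so that the inducible subunits lay on both sides of 0 there. On the C4-2 array PSMB8 was at 0.03 and PSMB10 at 0.06. The C4-2 mock gave raw Cy3 signals of only 26.0 for PSMB8, close to background, and 42.7 for PSMB9.

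PSME1 and PSME2 form the ring that activates the core under interferon. PSME2 was at −0.53, −0.50, −0.49 and −0.21 on those 4 arrays and PSME1 at −0.26, −0.17, −0.64 and −0.12. With miR-199-3p they were at 0.21 and 0.23. The activators outside the interferon response had other values. PSME3 was above 0 on all 8 arrays, from 0.04 to 0.40. PSME4, a large activator of the nucleus and of sperm cells, was at 0.46 (5p) and 0.41 (3p) with the miR-140 strands. A dimmer PSME4 probe gave 0.04 (5p) and 0.03 (3p) there, so the higher values were not shared between probes.

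Some genes of antigen presentation and of the interferon response were low on the same arrays. TAP1, a peptide transporter whose gene lies 487 bases from PSMB9 in the RefSeq table, was at −0.56, −0.30, −0.27 and −0.28 on the miR-532 and miR-140 arrays and at 0.51 with miR-199-3p. ISG15, an interferon-induced modifier, was at −0.53, −1.18, −1.28 and −1.05 on those 4 arrays, and IFIT1, an interferon-induced RNA sensor, at −0.64, −0.60, −1.38 and −1.18. With miR-199-3p both were near 0, at −0.11 and 0.06. Of the list of 23 such genes, 4 of 20 measured were at or below −0.5 with each miR-532 strand, and in T24 4 of 19 (miR-140-5p) and 3 of 19 (miR-140-3p) were. On these arrays 3.67% (miR-532-5p), 3.84% (miR-532-3p), 2.89% (miR-140-5p) and 1.09% (miR-140-3p) of all genes were. The medians of the listed genes were 0.07, −0.09, −0.13 and −0.11. On the miR-532-5p array 8 of the 20 lay below 0, 40% against 49.9% of all genes, and on the other 3 arrays 15, 13 and 12 did, 75% against 50%, 68.4% against 47.6% and 63.2% against 45.4%. Their part in the proteasome values was not tested.

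**Figure D4:**
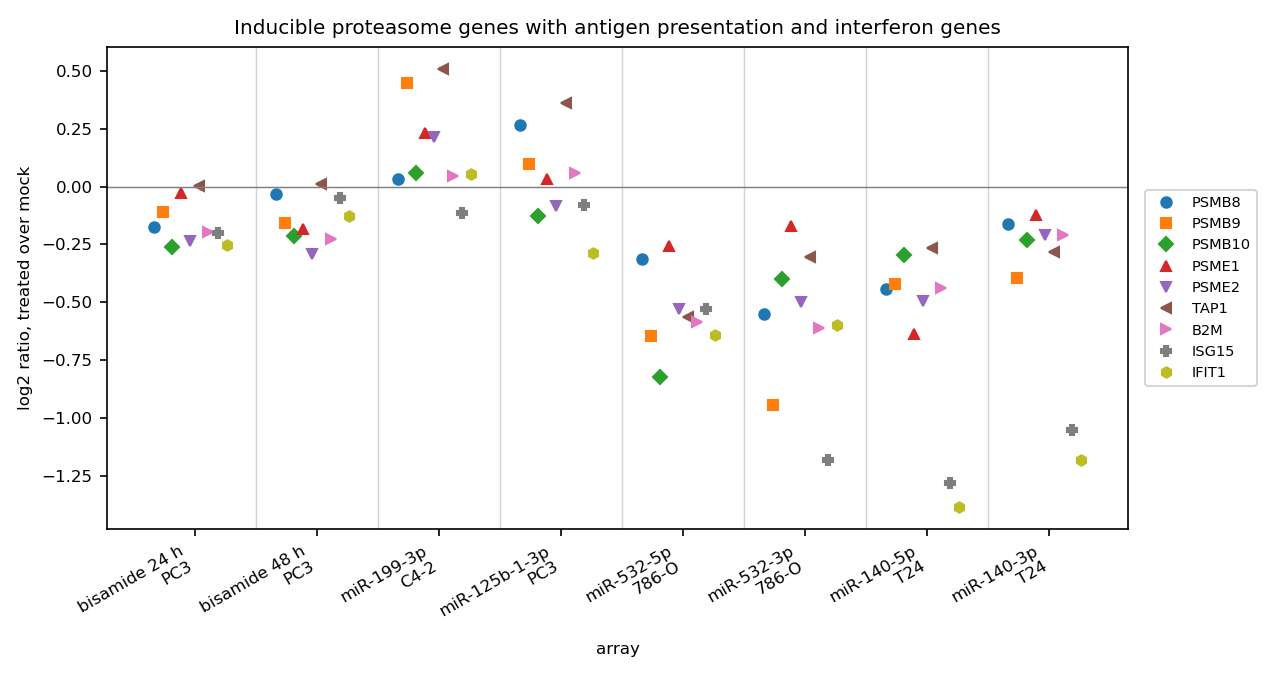
Log2 ratio of treated over mock RNA (y) of the inducible subunits PSMB8, PSMB9 and PSMB10, the activators PSME1 and PSME2, and TAP1, B2M, ISG15 and IFIT1 on each array (x). All points lie below 0 on the 4 arrays of 786-O and T24, and PSMB9 and TAP1 lie highest on the C4-2 array, at 0.45 and 0.51.

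With the miR-140 strands in T24 the members' medians were near 0 after loess, with single members apart. With median centring the members' median relative to all genes was 0.47 (5p) and 0.34 (3p), and 39 and 41 of 46 were at or above 0.5, as were 78.7% and 89.5% of genes of like brightness. With miR-140-5p 2 members were at or below −0.5, against 2.89% of all genes, and 1 at or above 0.5, against 1.74%. PSMA6, an alpha subunit, was at −0.70 and PSME1 at −0.64. With median centring PSMA6 turned to 0.24 and PSME1 was at −0.26, where the median of all genes was 0.35. The scanner's own ratio gave 5 of 46 members at or below −0.5, against 10.6% of all genes. PSMD12 was at 0.67, a ratio of 1.60, and is read by 1 probe (chr17:65337126-65338318, GRCh37, minus strand, across an exon junction).

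With miR-140-3p no member passed 0.5 in size, against 1.09% of all genes at or below −0.5 and 0.998% at or above 0.5. PSMB9 was lowest at −0.39, followed by the ATPase PSMC6 at −0.37 and PSMA2 at −0.32. PSMC6 was at 0.26 with miR-140-5p, and this gap of 0.63 was the widest between the strands. Among 46 members 4 differed by 0.5 or more between the strands, against 5.94% of all genes. A partner stood out with miR-140-5p: UBLCP1, the phosphatase of nuclear proteasomes, was at −1.06, the 1 of 28 partners past 0.5 in size. On that array 2.89% of all genes were at or below −0.5 and 1.74% at or above 0.5.

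With miR-199-3p in C4-2, PSMD8, a lid subunit, was at −0.57, the 1 member of 46 at or below −0.5, against 2.73% of all genes. With median centring its ratio turned to 0.071, where the median of all genes was 0.30. None reached 0.5, against 1.76%. PSMD14 was at −0.44, PSMA2 at −0.42 and PSMB5 at −0.41, while PSMG4 was at 0.33 and PSME3 at 0.25. PSMD10, a chaperone of the base also known as the oncoprotein gankyrin, was at −0.14 by its representing probe and at −0.65 and −0.34 by dimmer ones. All 7 constitutive beta subunits lay below 0, between −0.41 and −0.10.

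Of 26 partners measured with miR-199-3p, 3 were at or below −0.5, against 2.73% of all genes. UBQLN1, which carries ubiquitinated proteins to the proteasome, was at −1.04 and UBE3C at −0.85. The polyubiquitin gene UBB was at −0.54. None reached 0.5, against 1.76% of all genes, and NGLY1 was highest at 0.46.

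Over all 8 arrays, 28 of the 46 members stayed within 0.5 of 0 and 18 passed it on at least 1 array. PSMB6, PSMB9, PSMD9 and PSMG1 passed it on 2 arrays, in each case those of the miR-532 strands. By their representing probes PSMA3, PSMG1 and PSMD1, a scaffold of the base, lay below 0 on all 8 arrays. Only PSME3 lay above 0 on all. By those probes PSMG1 ranged from −0.60 to −0.13 and PSMD1 from −0.45 to −0.09. A dimmer PSMD1 probe was at 0.003 (5p) and 0.27 (3p) with the miR-140 strands, and so not below 0 on all arrays. The shares of all genes for these counts over 8 arrays were not computed, so the counts are descriptions only.

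The lines differed in how much mock signal the inducible subunits gave. The log2 Cy3 signal of PSMB9, after loess and normalization between arrays, was 9.66 and 9.70 in 786-O, 8.12 and 8.15 in T24, 6.77 in C4-2 and 6.56 to 6.84 in PC3. The order was 786-O, T24, then PC3 and C4-2, which overlapped, and the mean of 786-O lay 3.01 above that of PC3, 8.04-fold. PSMB8 was at 8.21 and 8.29 in 786-O, 7.20 and 7.32 in T24, 7.16 to 7.23 in PC3 and 6.08 in C4-2, and T24 and PC3 overlapped. Its C4-2 value came from a raw Cy3 signal of 26.0, close to background. PSMB10 was 0.81 higher in 786-O and 0.72 higher in T24 than in PC3. With the Cy3 channels only centred on their medians, 786-O lay above PC3 by 1.97 in PSMB9 and by 0.10 in PSMB8, and PSMB10 turned to −0.42.

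PSME2 was at 11.10 in C4-2 against 12.53 to 12.72 in PC3. In C4-2, 37 of 46 members gave less Cy3 signal than every PC3 mock, against 47% of all genes well above background in PC3, and 4 gave more, against 41%. Below every PC3 mock lay 20 members in 786-O, against 42.6% of all genes, and 18 in T24, against 39.6%. Above every PC3 mock lay 12 in each, against 34.7% and 35.6%. PSMG1 was the member with the widest gap after PSMB9 and PSMB8, 1.76 lower in C4-2 than in PC3. Each line lay on arrays of its own, so line and array cannot be told apart, and C4-2 had 1 mock.

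**Figure D5:**
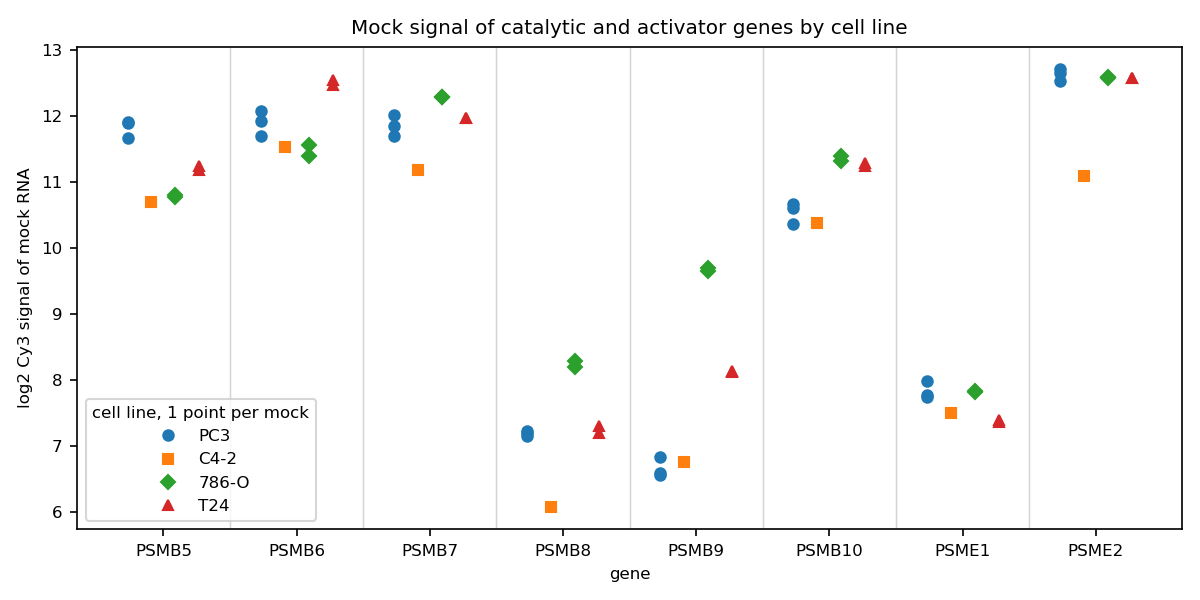
Log2 Cy3 signal of mock RNA (y, after loess and normalization between arrays) of the cutting subunits, their inducible counterparts and the activators PSME1 and PSME2 (x), with 1 point per mock channel and a shape for each cell line. PSMB9 separates 786-O (9.66 and 9.70) and T24 (8.12 and 8.15) from PC3 and C4-2, which lie between 6.56 and 6.84; signals of different genes cannot be set against each other because the probes differ.

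Many proteasome promoters are known to carry antioxidant response elements, which NFE2L1 binds. The letters TGACNNNGC were searched on both strands from 250 bases before to 50 after the start site (RefSeq, GRCh38.p14). Of 42 members whose promoter was given, 15 held them, 35.7%, against 16.1% of 27305 genes. Of these, 8 had a ratio past 0.5 on some array, as did 18 of all 46 measured members. The share of all genes was not computed, so the count is a description only. The windows of 4 of the 8 are shown, with the match in capitals. The other 4 were PSMD3, PSME1, PSME2 and PSMG1.
PSMA4 (chr15:78540650-78540679, plus strand): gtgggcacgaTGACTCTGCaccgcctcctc
PSMD9 (chr12:121888678-121888707, plus strand): cggcttccggTGACCCAGCtccgccctaag
PSMD12 (chr17:67366723-67366752, minus strand): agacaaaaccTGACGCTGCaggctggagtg
PSMB9 (chr6:32854034-32854063, plus strand): gggcggggctGCCTCGTCActtgtctcggg
In PSMB9 the match is on the opposite strand and reads in reverse. The median ratio of the 15 members with a match was −0.18 with bisamide at 24 h, beside −0.23 for the 25 measured members without one, and −0.20 beside −0.21 at 48 h. The direction of this gap differed among the arrays. Members with a match lay lower with miR-532-3p, at −0.38 beside −0.20, and with miR-532-5p, at −0.30 beside −0.21. They lay higher with miR-199-3p, at −0.009 beside −0.14, and with miR-125b-1-3p, at −0.001 beside −0.11. In T24 the medians were 0.01 beside 0.03 (5p) and 0.006 beside 0.04 (3p). A match of letters is a description of the window and not a binding site.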

How the data were processed

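RNA of 8 treated cultures (Cy5) and of mock cells (Cy3) was hybridised to 8 two-colour Agilent arrays on 1 slide. Per the file headers, the authors used Agilent's Feature Extraction software (11.5.1.1). The deposited files give the intensity of each spot and of its local background, as that software read them, on a linear scale and not normalized, and coordinates of GRCh37. The deposited log10 ratio of Cy5 over Cy3 was background-subtracted and dye-normalized by that software, and the deposited series table holds the same values.

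From the intensities, log2 ratios were computed with limma 3.58.1 in R 4.3.3: normexp background correction with an offset of 50, which pulls ratios of dim spots towards 0, and loess within each array. Outlier spots (126 to 181 an array) were left out, no spot was saturated, and spots of a probe were averaged. The method was tested on simulated data. A gene was represented by its brightest probe and counted as measured when well above background in both channels, which held for 15442 to 19241 of 43317 genes. By accession 47 of the 48 representing probes matched RefSeq, all under the same symbol. Sizes of 0.5 and 1.5 (log2) were counted beside the percentage of all measured genes. With 1 array a group no p-value was computed, and this number limits how precise any ratio is. Mock signals were compared after loess and Aquantile normalization.

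Genes named were the cutting, inducible, activating, inhibiting and assembling members, PSMD4, PSMD14, the 3 lowest and 3 highest members of each array, members past 0.5 on any array, and the 3 other genes most like the members' median. Other genes come from lists of partners, antigen presentation and interferon genes, 3 comparison complexes and cell type markers; a few genes of these lists are not reported here and were left out of the counts. PSMA1, PSMB4, PSMD1 and PSMD10's further probes were named after their values were seen. The members and lists were chosen with earlier results of these data known. Alternatives were plain subtraction, median centring, the scanner's ratio, the series table, another filter, the mean over probes, and, for mocks, other normalizations of Cy3; genes of like brightness were added after seeing the data.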

Additional observations from a re-analysis of the deposited data

How the results depend on the processing

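No paired analysis was possible because there was 1 array a group. Filtering on at least 1 channel changed no summary value beyond the spread between PC3 mocks. With median centring the members' median minus that of all genes was 0.18 with bisamide at 24 h, 0.18 at 48 h and 0.048 with miR-532-3p, which reversed the direction. It was 0.17 in C4-2, 0.24 with miR-125b-1-3p, and 0.47 (5p) and 0.34 (3p) in T24. Members at or above 0.5 then numbered 36 and 33 with bisamide, 19 in C4-2, 37 with miR-125b-1-3p, 39 (5p) and 41 (3p) in T24, and 2 with miR-532-3p. In that order the shares of all genes were 44.9%, 43.9%, 28.6%, 41.2%, 35.7%, 44.9% and 16.3%. Those of genes of like brightness were 91.1%, 88.9%, 61.1%, 81.5%, 78.7%, 89.5% and 36.3%. Members at or below −0.5 then numbered 0 in C4-2, 2 with miR-532-3p and 0 with miR-140-5p, against 0.58%, 1.23% and 0.33% of all genes. Under that setting PSMD8 in C4-2 was at 0.071, PSMG1 with miR-532-3p at 0.041 and PSMA6 with miR-140-5p at 0.24. All turned above 0 but lay below the median of all genes under that setting, 0.30, 0.17 and 0.35 in turn. Of the 22 values past 0.5, 14 stayed past it. Median centring keeps the change of dye bias with brightness that loess removes. Set against genes of like brightness, no median moved beyond that spread under any alternative.

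Plain subtraction, the scanner's ratio and the series table each gave 1 member at or below −0.5 at both bisamide times. In T24 each gave 5 (5p) and 1 (3p). Of all genes, plain subtraction put 3.59%, 3.91%, 8.94% and 5.94% at or below −0.5 on these arrays in turn. The scanner's ratio put 5.00%, 5.49%, 10.6% and 7.22% there, and so did the series table. Each of these settings gave 2 members at or above 0.5 with miR-140-5p, 1 in C4-2 and 1 with miR-532-3p. Shares of all genes at or above 0.5 were 6.64%, 7.78% and 9.11% with plain subtraction and 7.54%, 8.84% and 10.7% with the others. Plain subtraction also gave 2 at or above 0.5 with miR-532-5p and 1 with miR-140-3p, against 13.1% and 3.89% of all genes. With the mean over probes none was at or above 0.5 with miR-532-5p, against 2.86% of all genes. Of the 22 values past 0.5, plain subtraction kept 22 and the scanner's ratio, the series table and the mean over probes 21 each, all without PSMD2, which was at 0.43, 0.43 and 0.30 there.

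For mock levels minus PC3, quantile normalization of Cy3 alone gave −1.02 for PSMB8 in C4-2. Median centring of Cy3 alone gave, for C4-2, 786-O and T24 in turn, −1.38, 0.10 and −0.13 for PSMB8, −1.35, −0.42 and 0.26 for PSMB10, −1.22, −0.93 and −0.70 for PSME1 and −2.60, −1.23 and −0.43 for PSME2. PSMB10 in 786-O was thereby reversed. PSMB9 was at −0.47 in C4-2 and 1.97 in 786-O. The cause was not tested.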

Other observations

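Among 12533 other genes measured on all 8 arrays, the genes whose ratios were most like the members' median were ATPAF2, an assembly factor of the mitochondrial ATP synthase (Pearson's r 0.98), CCDC109B, a subunit of the mitochondrial calcium uniporter (0.97), and a transcript listed as AV738989 (0.97). These are descriptions over 8 arrays that share lines and perhaps mock RNA, drawn as the highest of many. ATPAF2 lay above 0 on every array, from 0.01 with miR-532-3p to 0.44 with miR-140-5p. CCDC109B ranged from −0.39 with miR-532-3p to 0.28 with miR-140-5p.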
